A study of Mus musculus with 6 samples.

Results

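Prok2, which encodes the secreted chemoattractant prokineticin 2, and 7 chemokine genes (Cxcl1, Cxcl2, Cxcl3, Ccl3, Ccl4, Ccl6 and Ccl9) were followed in bone marrow (BM) neutrophils during the growth of an orthotopic lung tumor. The 8 genes were chosen by name from results of these same libraries, so their values are a description. Where a member is said to be called, this is its place in the fit over all genes, given without a p-value and not as independent evidence. They are 8 of the 38887 genes in the count table, and 8 of 8 passed the filter on low counts that left 12259 genes. Ly6G+ cells were selected with beads, to a stated purity over 95%, from naive C57BL/6 mice and from mice carrying LL2 tumors, and total RNA was sequenced. LL2 is a Lewis lung carcinoma line, here expressing luciferase, that forms lung lesions after intravenous injection. The groups were naive mice, LL2 mice 1 week after injection and LL2 mice 3 weeks after injection, with 2 libraries in each group, and all 3 groups were C57BL/6 background animals without further alleles in the labels. The labels number the libraries as replicate mice and give no ages, and nothing in them tells whether the replicates were collected on separate days, so the spread between libraries may be partly technical.

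Chemokines are small secreted proteins that guide leukocytes through G protein-coupled receptors. CXC chemokines that carry a Glu-Leu-Arg (ELR) motif before their first cysteines, such as CXCL1, CXCL2 and CXCL3 in the mouse, act on CXCR2 and draw neutrophils. CC chemokines have adjacent first cysteines. CCL3 and CCL4 draw monocytes and other leukocytes, and CCL3 acts on CCR1, as do the mouse chemokines CCL6 and CCL9. Prokineticin 2 is not a chemokine by structure. It begins with the residues AVITGA, which its receptors PROKR1 and PROKR2 require, and it is produced by myeloid cells under G-CSF and STAT3 signalling.

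The coding stretches that carry these signatures are printed here for 7 of the 8 genes from the GENCODE transcripts of GRCm38, 5′ to 3′ along each mRNA, with the codons of AVITGA, of ELR-CXC or of the paired cysteines in capitals. They are shown because they are what sorts the genes into prokineticin, ELR-CXC and CC groups, by which the results are ordered.
Prok2: gatgccGCGGTCATCACCGGGGCTtgcgac
Cxcl1: gccaatGAGCTGCGCTGTCAGTGCctgcag
Cxcl2: gccagtGAACTGCGCTGTCAATGCctgaag
Cxcl3: gccagtGAGCTGCGCTGTCAGTGCctgaac
Ccl4: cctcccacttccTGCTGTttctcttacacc
Ccl6: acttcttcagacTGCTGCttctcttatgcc
Ccl9: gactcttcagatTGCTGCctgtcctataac
In the longest coding sequence of Prok2, of 128 codons, AVITGA spans codons 27 to 32. Among the coding sequences, Cxcl2 and Cxcl3 were the most alike, with 89.7% of aligned bases identical. Cxcl1 and Cxcl2 had 75.7% identity, Ccl3 and Ccl4 68.1%, and Ccl6 and Ccl9 64.6%. At the read length of 75 bp that the labels give, 101 of the 2209 distinct stretches of Cxcl2 transcripts (4.57%) also occurred in Cxcl3, and no other pair of the 8 genes shared a stretch. With 50 bp, the longest read named in the study's methods, Cxcl2 and Cxcl3 shared 126 stretches.

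The libraries held between 11994158 and 14127919 estimated reads each. Counts are given as deposited and as CPM, in which each count is divided by the library total in units of 1000000 reads after TMM scaling between libraries. On this scale 3 counts, the smallest number taken as detected, came to between 0.2 and 0.245 CPM, a limit that covers counting error only. The 12 neutrophil markers summed to between 284800 and 348700 CPM in every library, although Ly6g itself had only 6 to 32 counts. S100a8 and S100a9 made up most of this sum, with 166400 and 62890 CPM in the first naive library. By edgeR's quasi-likelihood test, 2 of the 12 were higher at 3 weeks against naive and 3 lower, the granule protein genes Camp, Ltf and Ngp. Over all genes tested, 12.0% were called higher and 9.42% lower there. Markers of other cells were present in all groups. The B cell list summed to 65.2 to 90.5 CPM in naive mice and 14.5 to 22.9 CPM at 3 weeks. The neutrophil precursor list had 5 of 9 genes higher and 4 of 9 lower at 3 weeks than in naive mice by edgeR's quasi-likelihood test, the higher ones being the granule protein genes Mpo, Elane, Prtn3 and Ctsg, and Ms4a3, a membrane protein gene. In these bulk samples, fewer cells of a type and less RNA per cell cannot be told apart.

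Prok2 lies at chr6:99711299-99726392 on the minus strand. It had 174 and 135 counts in the naive libraries, 125 and 113 at 1 week, and 3329 and 2485 at 3 weeks. Its mean was 12.4 ± 1.92 CPM (SD, n = 2) in naive mice, 8.38 ± 0.0586 CPM at 1 week and 224 ± 47.4 CPM at 3 weeks. The 2 libraries of three-week LL2 mice lay far above all others, and both libraries of one-week LL2 mice lay below both naive ones. The log2 fold change was 4.18 ± 0.18 (SE) at 3 weeks against naive, an 18.1-fold rise, and 4.74 ± 0.18 against 1 week, 26.8-fold. Across single pairs of libraries, the rise over naive ranged from 13.9-fold to 23.4-fold. At 1 week the log2 fold change was -0.57 ± 0.19. It was not called changed in the main edgeR fit. It was called lower, at -0.57 in each case, when either library of three-week LL2 mice was left out. With no filter on low counts it was also called lower, at -0.56. A lncRNA gene on the other strand, Gm26748, overlaps Prok2 and had 19 and 11, 3 and 3, and 88 and 58 counts in the same order. Whether counting used the strand is not given in the sources used here, so reads of the pair may not be told apart, but Prok2 held the larger number in each library. The 5 higher precursor markers moved with Prok2 at 3 weeks, and the other 4, Cebpe, Mki67, Top2a and Birc5, moved the other way. The part of precursor cells in the Prok2 result was not tested.

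The 3 ELR-CXC chemokine genes, all on the plus strand of one cluster on chromosome 5, were unequal in abundance, with Cxcl2 far above Cxcl1 and Cxcl3. Cxcl2 (chr5:90903871-90905938) had 12069 and 8120 counts in naive mice, 10544 and 7540 at 1 week, and 39223 and 24544 at 3 weeks. Its means were 809 ± 205, 632 ± 99.96 and 2463 ± 816 CPM (SD, n = 2). The three-week libraries were above all others, while the one-week and naive libraries overlapped. The log2 fold change at 3 weeks was 1.61 ± 0.21 (SE) against naive, 3.04-fold, and 1.96 ± 0.21 against 1 week, 3.89-fold. The first library had 1.61 times the CPM of the second at 3 weeks, 1.25 times at 1 week and 1.44 times in naive mice. At 1 week the log2 fold change was -0.36 ± 0.21.

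Cxcl1 (chr5:90891241-90893115), which encodes the KC chemokine, was close to the limit of detection. It had 11 and 3 counts in naive mice, 5 and 4 at 1 week and 9 and 15 at 3 weeks. Over both libraries, 24 counts at 3 weeks against 14 in naive mice gave a ratio of 1.65 after scaling, with an exact 95% counting interval of 0.817 to 3.44, and the libraries overlapped. Against 1 week the ratio was 2.93 with an interval of 1.31 to 7.15, and the libraries did not overlap, as for 31.6% of all genes. These intervals cover counting error only and leave out the spread between mice. The fit, which includes that spread, did not call Cxcl1 against 1 week (log2 fold change 1.52 ± 0.76, SE). A change of Cxcl1 from naive mice was not detectable at this depth.

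Cxcl3 (chr5:90786103-90789600) was rarer still, with 1 and 0 counts in naive mice, 4 and 2 at 1 week, and 17 and 14 at 3 weeks. The ratio of 31 counts at 3 weeks to 1 count in naive mice was 29.8 after scaling, with an exact 95% counting interval of 4.96 to 1213. Against the 6 counts at 1 week it was 5.67 (2.33 to 16.6). No Cxcl3 value of one group reached into the range of another. Relative to Cxcl2, Cxcl3 had 0.829 and 0 counts per 10000 Cxcl2 counts in naive mice, 3.79 and 2.65 at 1 week, and 4.33 and 5.7 at 3 weeks. Because the pair shares 4.57% of Cxcl2's 75-base stretches and RSEM divides such reads between genes, so small a count of Cxcl3 beside Cxcl2 is uncertain, and the 2 sources of the reads cannot be told apart in this table. Cxcl3 was not called against naive when naive replicate 2 (log2 fold change 3.78) or week 3 replicate 1 (4.46) was left out, and not called against 1 week without any 1 of the 6 libraries. DESeq2 gave it no adjusted p at 3 weeks in either comparison.

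**Figure D1:**
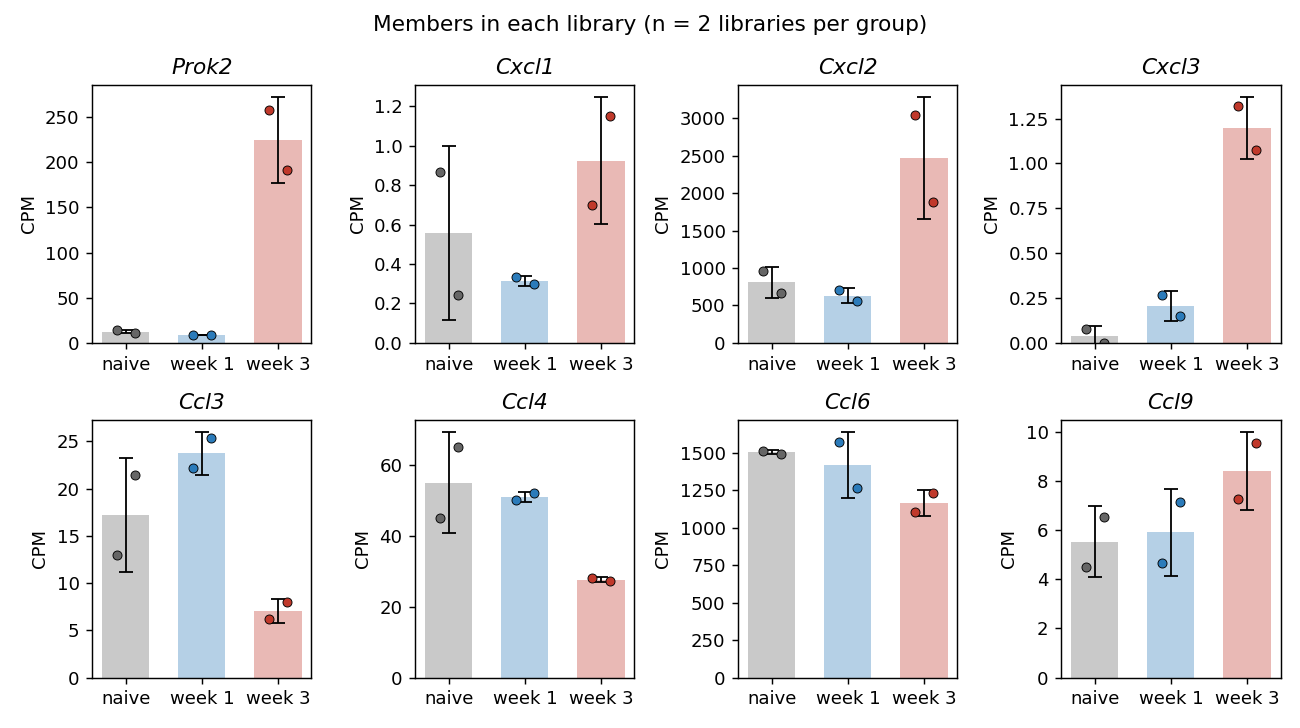
CPM of each gene on its own linear axis, starting at 0, for naive mice and for LL2 mice at 1 and 3 weeks. Points are the 2 libraries of a group, bars their mean and error bars the SD. Prok2 and Cxcl2 stand highest at 3 weeks, at 224 and 2463 CPM, while Ccl3 and Ccl4 are lowest there, at 7.1 and 27.6 CPM.

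The 4 CC chemokine genes lie together on chromosome 11. Ccl3 and Ccl4 were called lower at 3 weeks, whereas Ccl6 and Ccl9 were not called. Ccl3 (chr11:83647844-83649355, minus strand), which encodes MIP-1α, had 164 and 262 counts in naive mice, 332 and 340 at 1 week, and 80 and 104 at 3 weeks. Its means were 17.2 ± 5.98, 23.7 ± 2.26 and 7.1 ± 1.27 CPM (SD, n = 2). The one-week libraries were above both naive libraries and the three-week libraries were below them, so the 3 groups did not overlap. At 3 weeks the log2 fold change was -1.27 ± 0.23 (SE) against naive, 2.42-fold lower, and -1.74 ± 0.23 against 1 week, 3.34-fold lower. At 1 week it was 0.47 ± 0.21 against naive and was not called, but it was 0.87 and called without naive replicate 2.

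Ccl4 (chr11:83662584-83664683, plus strand), which encodes MIP-1β, had 568 and 796 counts in naive mice, 751 and 698 at 1 week, and 363 and 353 at 3 weeks. The three-week libraries lay below all others, and those of naive and one-week mice overlapped. Its means were 55 ± 14.3, 51.0 ± 1.36 and 27.6 ± 0.712 CPM (SD, n = 2), a log2 fold change at 3 weeks of -0.99 ± 0.16 (SE) against naive, 1.99-fold lower, and -0.89 ± 0.16 against 1 week. At 1 week it was -0.11 ± 0.16.

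The summed level of the 9 basophil and mast cell markers had the same order of groups as Ccl3. It was 39.4 to 41.2 CPM in naive mice, 75.9 to 79.2 CPM at 1 week and 28.1 to 31.2 CPM at 3 weeks. Of the 6 that could be tested, 3 were higher and 1 lower at 1 week against naive, and 0 were higher and 3 lower at 3 weeks. Mcpt8, Cpa3 and Prss34, mast cell and basophil protease genes, were the 3 in both cases. Il6ra, the IL-6 receptor gene, went against them, with 197 and 165 counts in naive mice, 120 and 102 at 1 week (called lower) and 268 and 237 at 3 weeks. Gata2 was not called against naive at either time. Over all genes tested, 4.23% were called higher and 3.76% lower at 1 week against naive, and 12.0% and 9.42% at 3 weeks. The protease gene Prss34 had 192 and 175 counts in naive mice, 597 and 596 at 1 week, and 27 and 73 at 3 weeks, while Fcer1a had 0 to 16 and Ms4a2 0 to 3 counts in a library. The T and NK cell list had this order of groups too, with 15.95 to 18.6 CPM in naive mice, 19.27 to 28.97 CPM at 1 week and 11.5 to 13.2 CPM at 3 weeks. Of its 4 tested genes 0 were called at 1 week against naive. At 3 weeks 1 was lower and 1, the cytotoxic granule gene Nkg7, was higher (log2 fold change 1.6 ± 0.39, SE, adjusted p = 0.0115 by edgeR). The eosinophil list was at 121 to 123 CPM in naive mice, 117 to 125 CPM at 1 week and 60.9 to 88.6 CPM at 3 weeks, when 0 of 7 tested genes were higher and 3 lower than in naive mice. The monocyte and macrophage list did not show that order, with 1170 to 1281 CPM in naive mice, 1252 to 1326 CPM at 1 week and 1203 to 1359 CPM at 3 weeks. The part of these cells in the Ccl3 and Ccl4 values was not tested.

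Ccl6 (chr11:83587882-83593087, minus strand) was the most abundant CC chemokine mRNA. It had 19113 and 18248 counts in naive mice, 23606 and 16969 at 1 week, and 14256 and 15979 at 3 weeks. Its means were 1502 ± 13.1, 1419 ± 219 and 1166 ± 87 CPM (SD, n = 2). The three-week libraries were the lowest, although the one-week pair spanned the naive pair. The log2 fold change at 3 weeks was -0.36 ± 0.12 (SE) against naive, 1.29-fold lower. It was not called in the main edgeR fit. It was called lower by DESeq2 (-0.39), with DESeq2's size factors (-0.39), on the naive and three-week libraries alone (-0.40), with library size in place of TMM (-0.51), with either other filter (-0.39 and -0.37), and without week 1 replicate 1 or 2 (-0.40 each). The other gene at this place, E230016K23Rik on the plus strand, had 8 to 32 counts in a library.

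Ccl9 (chr11:83572919-83578636, minus strand) had 57 and 80 counts in naive mice, 70 and 96 at 1 week, and 94 and 124 at 3 weeks. Its means were 5.52 ± 1.44, 5.91 ± 1.76 and 8.41 ± 1.59 CPM (SD, n = 2). The three-week libraries lay above the others by a small margin, 7.29 CPM against a highest one-week value of 7.15 CPM. The log2 fold change was 0.61 ± 0.28 (SE) at 3 weeks against naive and 0.51 ± 0.27 against 1 week. It was not called in any comparison with all 6 libraries.

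At 1 week against naive, 0 of the 8 genes were called changed, where 4.23% of the 12259 tested genes were called higher and 3.76% lower at an adjusted p-value under 0.05. By edgeR, 2849 of all genes had an unadjusted p under 0.05 in this comparison, and DESeq2 also called 0 of the 8. The libraries of 2 genes, Cxcl3 and Ccl3, lay above those of naive mice and those of 1, Prok2, below, while 27.1% of all genes were separate in the higher and 26.1% in the lower direction. At 3 weeks against naive, 3 genes were called higher (Prok2, Cxcl2 and Cxcl3), beside 12.0% of all genes, and 2 lower (Ccl3 and Ccl4), beside 9.42%. In that comparison the libraries of 4 were separate and higher (32.1% of all genes), with Ccl9 added, and of 3 separate and lower (27.5%), with Ccl6 added. At 3 weeks against 1 week the same 3 were called higher (12.9% of all genes) and the same 2 lower (9.57%), and 5 were separate and higher (31.6%) and 3 lower (32.3%). The members were chosen with these comparisons known, so nothing is read from the counts. The 3 comparisons share libraries and are not independent of each other. The median log2 fold change of the 8 genes was -0.09, 0.66 and 1.02 in the 3 comparisons, against 0.01, 0.03 and -0.02 over all genes tested. With library size in place of TMM, the median of all genes moved to 0.07, -0.11 and -0.22, and the share of called genes that were higher moved from 52.9%, 56% and 57.5% to 68.6%, 34.7% and 28.6%. No called member changed direction with that scaling, with DESeq2's size factors or in DESeq2.

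**Figure D2:**
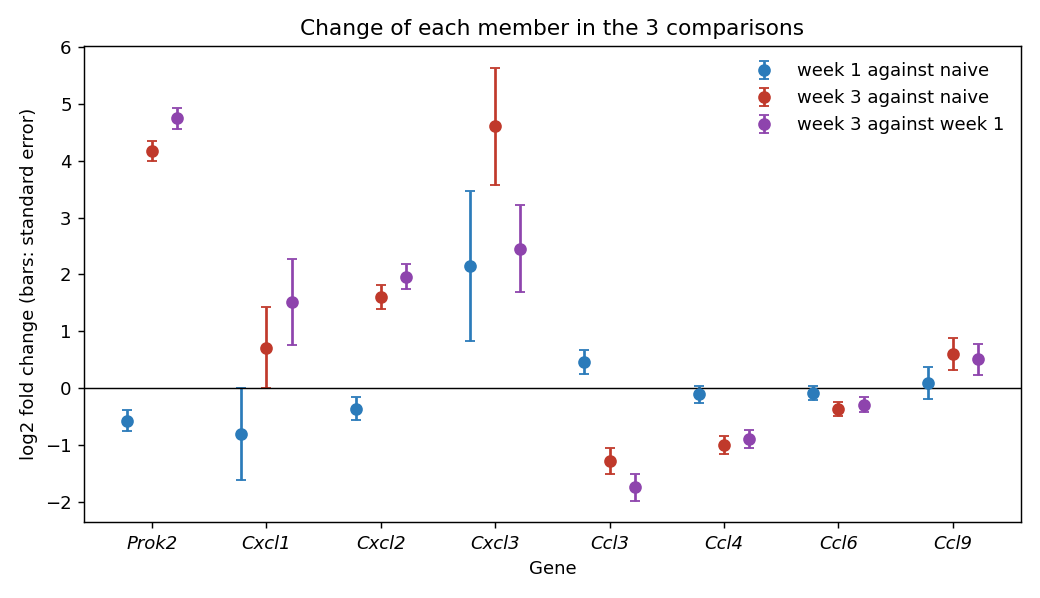
Log2 fold change of the 8 genes (vertical axis) in the 3 comparisons, with bars for the standard error from the fit to all 6 libraries. The three-week points lie far above 0 for Prok2 and Cxcl2 and below 0 for Ccl3 and Ccl4, and both Cxcl3 points against naive rest on 1 naive count and so on the prior count of the fit.

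To compare genes with each other, CPM was divided by the exon length in kb. In naive mice the order was Ccl6 (837 CPM per kb), Cxcl2 (391), Ccl4 (83.3), Ccl3 (22.4), Prok2 (6.47), Ccl9 (1.81), Cxcl1 (0.297) and Cxcl3 (0.0113), and no neighbouring pair overlapped in its libraries. The order was the same at 1 week. At 3 weeks Cxcl2 stood first, with 1470 and 912 CPM per kb against 616 and 684 for Ccl6, and Prok2 passed both Ccl4 and Ccl3, with 135 and 99.6 CPM per kb against 42.6 and 41.1 for Ccl4. Only Cxcl1, with 0.372 and 0.615 CPM per kb, and Cxcl3, with 0.377 and 0.307, overlapped among neighbours in that order. Among the 12101 tested genes with a known length, the rank of Prok2 was 3686 (naive), 4563 (1 week) and 428 (3 weeks). Cxcl2 ranked 112, 153 and 40, and Ccl6 ranked 47, 51 and 87. Cxcl2 mRNA alone held 0.278% and 0.176% of all counts at 3 weeks. With the longest annotated transcript as length, Prok2 came to 155 CPM per kb and Ccl6 to 810 CPM per kb at 3 weeks.

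**Figure D3:**
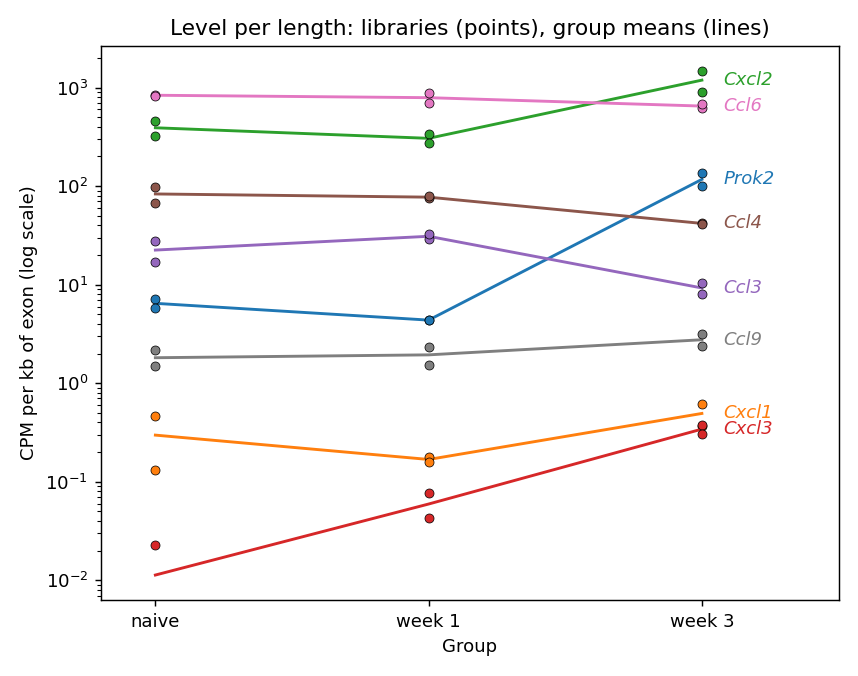
CPM per kb of exon on a log axis in the 3 groups, with a point for each library and lines through the group means, 1 colour per gene. The Prok2 line crosses those of Ccl3 and Ccl4 between 1 and 3 weeks and the Cxcl2 line crosses that of Ccl6. The second naive library of Cxcl3, at 0, has no point on the log axis.

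The chemokine genes sit in clusters, so their neighbours were examined by position. In the CXC region, Ppbp and Pf4, platelet chemokine genes next to Cxcl3, went the other way from Cxcl2. Ppbp had a log2 fold change of -0.74 ± 0.15 (SE) at 3 weeks against naive (adjusted p = 0.00399) and Pf4 of -0.53 ± 0.15 (adjusted p = 0.0246). The platelet list as a whole had 3 of 5 tested genes lower, these 2 among them, and its summed level was 132 to 149 CPM at 3 weeks and 189 to 202 CPM in naive mice. Cxcl5, on the other side of Ppbp, had 0 to 6 counts in a library, and Cxcl15, between Cxcl3 and Cxcl1, had 0 in all. In the CC region, Ccl5 had 16 and 21 counts in naive mice and 10 and 14 at 3 weeks. Beyond Ccl4 lie genes of the whey acidic protein family. The nearest, Wfdc17 (chr11:83703991-83706268), had 434 and 1050 counts in naive mice, 440 and 693 at 1 week, and 26584 and 22725 at 3 weeks. Its log2 fold change against naive was 4.99. Thus the genes next to each other in the CC region, Ccl4 and Wfdc17, had fold changes of opposite sign at 3 weeks.

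**Figure D4:**
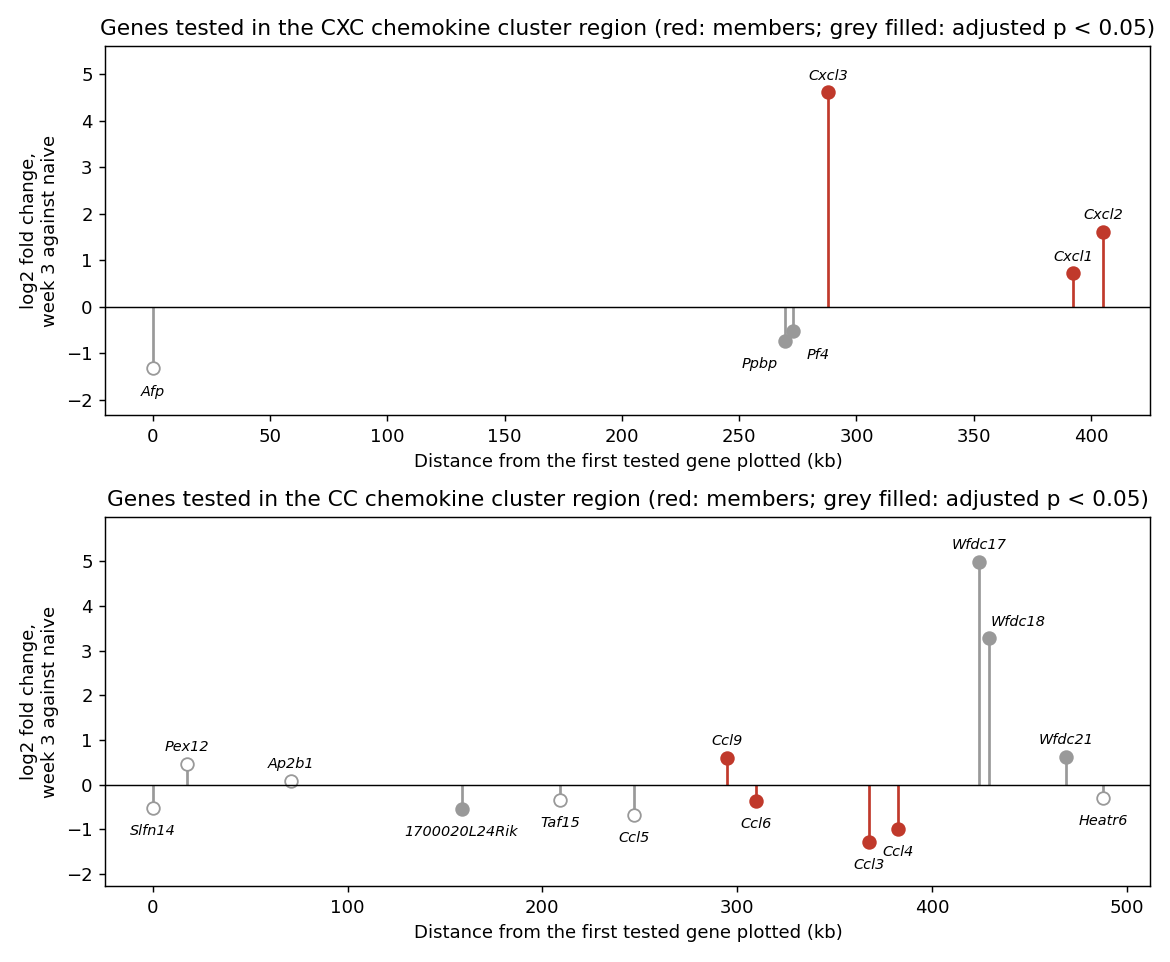
Log2 fold change at 3 weeks against naive (vertical axis) of the tested genes around the CXC and the CC chemokine genes, by distance in kb from the first tested gene plotted. Members are red, called or not, and other genes are filled grey when called, and the height of Cxcl3 rests on 1 count in naive mice. Cxcl2 and Wfdc17 point up, and Ppbp, Pf4, Ccl3 and Ccl4 point down.

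Many cytokine mRNAs are short-lived because AU-rich elements, repeats of ATTTA in the 3′ UTR, bind proteins such as ZFP36 (tristetraprolin) that trigger decay. The 24-base windows with most ATTTA pentamers are shown here for the 4 genes with the densest 3′ UTRs and for Prok2, from GENCODE transcripts of GRCm38 with the pentamers in capitals.
Cxcl2: cttATTTATTTAtctatgtATTTA
Ccl3: tcacttgaaattttATTTAATTTA
Cxcl1: cctATTTATTTAtgtATTTATTTA
Cxcl3: ggcatcttATTTAatgtttATTTA
Prok2: agttttgatttttggagagATTTA
Cxcl2 had 11 ATTTA in a 3′ UTR of 734 bases, or 15.0 per kb, which put it at percentile 99.7 of the 10642 tested genes with a 3′ UTR. Ccl3 had 12.2 per kb (percentile 99.4), Cxcl1 11.8 (99.3), Cxcl3 7.75 (97.9), Ccl4 6.62 (96.8) and Ccl6 4.24 (90.5). Prok2, with 1.99 per kb (percentile 65.0), and Ccl9, with 2.03 (65.7), were nearer to the median gene, which had 1.27 per kb. The longer motif TATTTAT occurred 7 times in Cxcl2, 6 times in Cxcl1, 2 times in Cxcl3 and once in Ccl3 and in Ccl4, and was present in 27.8% of all genes. Density did not order the changes. Cxcl2 and Ccl3 were both dense and had log2 fold changes of 1.61 and -1.27 at 3 weeks, and Prok2 was sparse and had 4.18. Decay of these mRNAs was not measured, and its part in the changes was not tested.

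**Figure D5:**
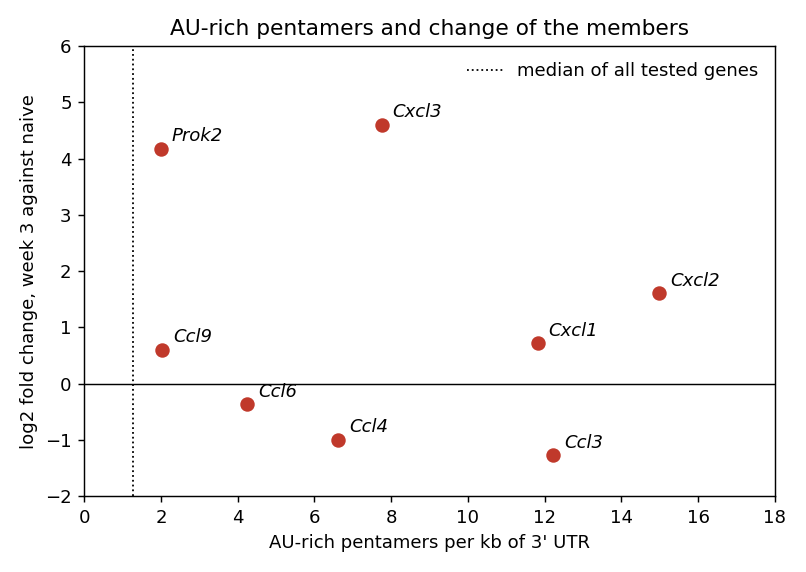
ATTTA pentamers per kb of 3′ UTR (horizontal axis) against the log2 fold change at 3 weeks against naive (vertical axis), 1 point per gene. The dotted line is the median gene, at 1.27 per kb. Dense 3′ UTRs occur both above and below 0.

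Of 13 genes for proteins that act on such elements or otherwise on cytokine mRNAs, 3 were higher and 1 lower at 3 weeks against naive. This list is named AU-rich element binding below, although not all of its proteins act through ATTTA repeats. Over all genes the shares were 12.0% higher and 9.42% lower. The list's median log2 fold change was 0.12, against 0.03 for all genes. Zfp36 had 6781 and 6525 counts in naive mice, 9218 and 8126 at 1 week, and 10325 and 13122 at 3 weeks, and rose by a log2 fold change of 0.76 ± 0.12 (SE, adjusted p = 0.000797). Zfp36l1, its paralog, rose by 1.85 ± 0.13 (adjusted p = 1.4e-06), and Arid5a, which protects some cytokine mRNAs from decay, by 1.03 ± 0.15 (adjusted p = 0.000369). Zc3h12a, the endonuclease Regnase-1, fell by 0.64 on the log2 scale (adjusted p = 0.00923). With library size in place of TMM, 7 of the 13 were called. At 1 week 0 of 13 were called, and 2 were called with no filter on low counts. At 3 weeks against 1 week 5 of the 13 were higher and 0 lower, beside 12.9% and 9.57% of all genes. Fewer were higher without week 1 replicate 1, week 1 replicate 2 or week 3 replicate 2.

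The regions around the start sites were read from RefSeq promoters (windows of 300 bases around each start, GRCm38.p6), which hold 7 of the 8 genes. In Cxcl1, Cxcl2 and Cxcl3 the same 10 bases matched the NF-kB motif upstream of the start. They are shown with 20 bases on each side and the match in capitals, because this is the sequence feature the 3 ELR-CXC genes share.
Cxcl1, chr5:90891154-90891203: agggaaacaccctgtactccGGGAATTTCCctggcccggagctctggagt
Cxcl2, chr5:90903782-90903831: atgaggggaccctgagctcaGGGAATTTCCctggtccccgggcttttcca
Cxcl3, chr5:90786008-90786057: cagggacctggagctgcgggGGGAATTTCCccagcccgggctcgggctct
The match began 71, 97 and 73 bases before the start, in this order, and also matched on the other strand, shifted by 1 base. An NF-kB match was present in 8.46% of 32851 promoter windows. Ccl9 had another NF-kB match (GGAAAGCCCC, 35 bases before the start) and Prok2, Ccl3 and Ccl6 had none. The Prok2 window is printed next because this gene rose most among the well counted members, with its matches in capitals.
Prok2, chr6:99726343-99726642, minus strand: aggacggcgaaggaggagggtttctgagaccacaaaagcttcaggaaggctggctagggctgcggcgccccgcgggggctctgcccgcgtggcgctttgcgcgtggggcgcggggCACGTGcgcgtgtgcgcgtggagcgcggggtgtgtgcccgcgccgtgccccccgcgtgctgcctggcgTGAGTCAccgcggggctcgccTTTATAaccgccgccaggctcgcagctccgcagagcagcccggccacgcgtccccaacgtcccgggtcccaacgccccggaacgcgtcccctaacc
It had a hypoxia-response core (ACGTG, in 19.6% of windows) on both strands about 134 bases before the start, an AP-1 site (TGANTCA, 7.81%) at 67 bases, and TATAAA on the other strand (13.6%) at 46 bases. Its GC content was 73.7%. No match to TTCNNNGAA, a STAT motif found in 8.3% of windows, or to TTGCNNAA, a C/EBP motif found in 10.8%, was present in any of the 7 windows, both strands searched. Such matches describe letters in these windows and are not evidence of binding.

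At 3 weeks against naive, 3 of 22 tested genes of the NF-kB pathway were higher and 2 lower, shares near those of all genes (12.0% and 9.42%). Their median log2 fold change was 0.24, against 0.03 for all genes. Bcl3, an atypical IκB protein gene, rose by a log2 fold change of 1.12 ± 0.19 (SE, adjusted p = 0.00103), Tnip2 by 1.63 ± 0.37 (adjusted p = 0.00716) and Chuk, the IKKα gene, by 0.59 ± 0.17 (adjusted p = 0.0246), while Nfkbid and Rel were lower, by 0.88 and 0.85. At 1 week against naive, 3 were lower and 0 higher, beside 3.76% and 4.23% of all genes. Among the 3 was Nfkbia, the IκBα gene, at -0.69 ± 0.17 (SE, adjusted p = 0.0262 by edgeR). At 3 weeks against 1 week 8 of the 22 were higher and 2 lower, beside 12.9% and 9.57% of all genes. These counts fell when certain libraries were left out, as did the calls over all genes. The 5 calls at 3 weeks against naive fell to 3 without naive replicate 1 or week 3 replicate 1. Those at 1 week fell to 0 without naive replicate 1, week 1 replicate 1 or week 1 replicate 2, and the 10 between 3 weeks and 1 week fell to 6, 3 and 6 without week 1 replicate 1, week 1 replicate 2 and week 3 replicate 1.

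Of 13 tested genes of G-CSF receptor and STAT3 signalling, 6 were higher and 2 lower at 3 weeks against naive. Over all genes the shares were 12.0% higher and 9.42% lower. The list's median log2 fold change was 0.34, against 0.03 for all genes. This list and the others were chosen with earlier results of these data known, so nothing is read from the counts. Socs3, a STAT3 target and feedback inhibitor, had 298 and 434 counts in naive mice, 339 and 305 at 1 week, and 2002 and 2201 at 3 weeks. It rose over naive by 2.46 ± 0.17 (SE, adjusted p = 1.12e-06). Cebpb, a transcription factor gene of emergency granulopoiesis, rose by 1.53 ± 0.16 (adjusted p = 3.56e-05) and Pim1, a kinase gene, by 0.81 ± 0.17 (adjusted p = 0.00358). Stat3 had 9040 and 9441 counts in naive mice, 7953 and 7209 at 1 week, and 12498 and 13155 at 3 weeks. It was lower at 1 week, at -0.48 ± 0.11 (adjusted p = 0.0176), the 1 call of the list there, and higher at 3 weeks, at 0.41 ± 0.11 (adjusted p = 0.0155). Socs1 and Cebpe were lower at 3 weeks, by 1.13 and 0.99 on the log2 scale. Csf3r, the G-CSF receptor gene, differed by 0.34 ± 0.14 (adjusted p = 0.104), and Csf3 had 0 counts in all libraries. The 8 calls fell to 4 without naive replicate 1, and the 1 at 1 week was lost without any 1 of the naive or one-week libraries. At 3 weeks against 1 week 5 of the 13 were higher and 2 lower, beside 12.9% and 9.57% of all genes. Fewer were called without week 1 replicate 1.

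Among the receptors for these ligands, Cxcr2, the receptor of the ELR-CXC chemokines, had 5875 and 6888 counts in naive mice, 6517 and 4808 at 1 week, and 11594 and 9996 at 3 weeks. It rose at 3 weeks by a log2 fold change of 0.70 ± 0.14 (SE, adjusted p = 0.00288), next to the rise of its ligand gene Cxcl2. Cxcr1 rose by 1.52 ± 0.36 from 22 and 47 counts to 91 and 116 (adjusted p = 0.00876). Ccr1, the receptor for CCL3, CCL6 and CCL9, rose by 0.61 ± 0.12 (adjusted p = 0.00356) while Ccl3 was lower. The prokineticin receptors were near the limit of detection, with 0 to 2 counts of Prokr1 and 4 to 9 of Prokr2 in a library, and neither passed the filter. In all, 16 of 26 receptor genes were tested. Over all genes tested, 12.0% were called higher and 9.42% lower at 3 weeks against naive. Of the 16 receptor genes, 3 were higher and 3 lower there (median log2 fold change -0.16). The lower ones were Cxcr4 (-1.21 ± 0.16, adjusted p = 0.000228), the retention receptor of BM neutrophils, Cx3cr1 and Ccr7. Without naive replicate 1 these counts were 0 and 3. At 1 week against naive 0 of 16 were called by edgeR.

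Of 31 other chemokine genes, 10 had enough counts to be tested and 10 had 0 counts in all libraries. At 3 weeks against naive, 1 was higher and 5 lower, beside 12.0% and 9.42% of all genes. The list's median log2 fold change was -0.71. The one higher was Ccl2, a monocyte chemoattractant gene, with 5 and 3 counts in naive mice, 3 and 6 at 1 week, and 23 and 39 at 3 weeks (log2 fold change 2.86 ± 0.64, SE, adjusted p = 0.00665). Cxcl12, the ligand of CXCR4 and mainly a stromal product in BM, was lower by 2.14 (adjusted p = 0.000225). Cxcl9 and Cxcl10, interferon-induced chemokine genes, were lower by 1.12 (adjusted p = 0.0216) and 1.77 (adjusted p = 0.0489). The summed level of the list was 89.5 to 96.8 CPM in naive mice and 53.4 to 61.7 CPM at 3 weeks, while the 8 members summed to 2261 to 2542 CPM and 3351 to 4446 CPM. The 6 calls fell to 3 without naive replicate 1, naive replicate 2 or week 3 replicate 2, and at 1 week 0 of 10 were called.

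Proteases of neutrophils and of other cells trim and so activate or inactivate chemokines. Of 8 genes for such proteases, not all of them neutrophil products, 3 were higher and 1 lower at 3 weeks against naive. Over all genes the shares were 12.0% and 9.42%. The median log2 fold change of the 8 was 0.35. The serine protease genes Prtn3, Ctsg and Elane rose by log2 fold changes of 3.23 ± 0.26, 2.91 ± 0.31 and 2.44 ± 0.38 (SE, adjusted p = 3.52e-06, 3.58e-05 and 0.000558), and they are also precursor markers. Dpp4, which removes N-terminal dipeptides from chemokines, was lower, with 23 and 17 counts in naive mice and 5 and 3 at 3 weeks. Mmp8 and Mmp9, at 0.07 and 0.23, were not called. Of 13 tested genes for other secreted cytokines, 3 were higher and 4 lower, beside the same shares of all genes. Their median was -0.37. Osm, the oncostatin M gene, rose by 0.96 ± 0.12 (adjusted p = 0.00016) and Il1rn, the IL-1 receptor antagonist gene, fell by 2.09 on the log2 scale (adjusted p = 2.72e-07), while Il1b differed by -0.17 ± 0.25. The 7 cytokine calls fell to 4 without naive replicate 1.

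Genes whose profile over the 6 libraries was closest to a member were listed by the root mean square difference of log2 CPM, each profile centred on its own mean. Closest to Prok2 were Fignl2 (0.254), F11r, 0610040J01Rik, Ggt1 and BC100530 (0.382). Fignl2 had 9 and 8 counts in naive mice, 8 and 8 at 1 week, and 277 and 229 at 3 weeks. Ggt1, the gamma-glutamyltransferase gene, had 70 and 95, 66 and 79, and 1848 and 912. Closest to Cxcl2 were Pik3ip1 (0.159), Tnfrsf13b, Cdk20, Eipr1 and Ctnnbip1 (0.21), and closest to Ccl3 were the lysozyme genes Lyz2 (0.14) and Lyz1 (0.165). Lyz2 had 99441 and 122460 counts in naive mice, 205397 and 187914 at 1 week, and 41320 and 54497 at 3 weeks, so it shared with Ccl3 the order of the 3 groups. Closest to Ccl4 was Chpt1 (0.046), to Ccl6 Mfsd12 (0.041), to Ccl9 Fbxl15 (0.0473), to Cxcl3 Tlr1 (0.504) and to Cxcl1 Mboat1 (0.152). None of the members was among the 5 nearest genes of another member. Between members the distance was 2.86 for Prok2 and Ccl3 and 1.28 for Prok2 and Cxcl2. These distances rest on 6 libraries in 3 groups and describe the profiles only.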

How the data were processed

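Total RNA of Ly6G+ BM cells was sequenced in 6 libraries, 2 per group, as single-end reads of 75 bp per the labels. The authors deposited expected counts per gene from RSEM with Bowtie2 against mm10, as whole numbers without scaling between libraries. The submitters' processing notes name RSEM 1.2.31. Library totals ran from 11994158 to 14127919. Groups and replicate numbers came from the labels. Of 38887 identifiers, 37570 had a GENCODE symbol (GRCm38, the build called mm10).

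Genes with low counts were removed with filterByExpr (minimum count 10), and 12259 genes were compared in one model of all 6 libraries by edgeR 4.0.16 (TMM, quasi-likelihood F test, R 4.3.3) with Benjamini-Hochberg adjustment at 0.05. The authors used DESeq2, which was run as an alternative (1.42.0). Counting intervals are exact at 95%. On simulated counts for this design, the fit recovered 185 of 200 genes changed with 8 false calls at 3 weeks against naive. It called 0 genes at 1 week, where none was changed. The planted changes had a single large size, lay only in genes averaging over 1 CPM, and used a spread smoothed over genes. These numbers do not give the power for smaller changes or for genes as rare as Cxcl1 and Cxcl3. The members and gene lists were chosen with earlier results of these data known. Named genes were the members, up to 5 called genes of smallest adjusted p per list and comparison, receptors and signalling genes fixed by name, the 5 nearest profiles and cluster neighbours. Only some of the eligible genes are named. Alternatives were other normalizations, filters, the compared libraries alone, a replicate block and each library left out. Some items are not reported here.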

Additional observations from a re-analysis of the deposited data

Results flagged for a closer look

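Stat3 was lower at 1 week and higher at 3 weeks than in naive mice. At 3 weeks against 1 week its log2 fold change was 0.89 ± 0.11 (SE, adjusted p = 8.09e-05 by edgeR). A call in all 3 comparisons was a condition for listing Stat3 here, so that p is no separate evidence. Prok2 was below both naive libraries in both one-week libraries and above them in both three-week libraries, with a log2 fold change of 4.18 at 3 weeks against naive. Ccl3 showed the opposite order, above naive at 1 week and below it at 3 weeks, where the log2 fold change was -1.27. In the comparison of 3 weeks with 1 week, the fit over all genes called Prok2 higher and Ccl3 lower. Both genes were chosen with that comparison known, so these calls are a description, and the difference was not tested on other samples. In groups of 2 libraries no single library can be set apart from the rest.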

How the results depend on the processing

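With 2 libraries per group, precision is limited by the spread between libraries and, for Cxcl1 and Cxcl3, by counts of 0 to 17. No called value changed sign under any alternative. At 1 week against naive, no filter on low counts raised the genes called from 979 to 1537, the members called from 0 to 2 (Prok2 and Cxcl2, both lower), receptors to 1, G-CSF and STAT3 genes to 2, AU-rich element binding genes to 2 and proteases to 2. The filter of over 1 CPM gave 1 receptor and the replicate block 1 protease there. Library size only gave 7 AU-rich element binding genes at 3 weeks against naive, and DESeq2 gave 3 at 3 weeks against 1 week. The cause was not tested.

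Over all genes tested, deviations of replicates with the same number were correlated at -0.0018, 0.0347 and 0.0435 between pairs of groups. These values show no pairing across all genes but cannot exclude it, since counting noise of low genes weighs on them. With the replicate block, 959, 2559 and 2709 genes were called at 1 week against naive, 3 weeks against naive and 3 weeks against 1 week, and 0, 5 and 5 members.

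Leaving out each library in turn, where a lone library is assumed to vary like the other groups, gave 147 to 1145, 1362 to 2392 and 1502 to 2725 genes called in the 3 comparisons, in the same order as above. Members called were 0 to 1, 4 to 6 and 4 to 4. Other chemokines were 0 to 0, 3 to 6 and 2 to 4, receptors 0 to 0, 3 to 7 and 5 to 7, and G-CSF and STAT3 genes 0 to 1, 4 to 8 and 4 to 6. NF-kB genes were 0 to 4, 3 to 6 and 3 to 9, AU-rich element binding genes 0 to 0, 3 to 5 and 2 to 5, proteases 0 to 2, 3 to 4 and 3 to 5, and cytokines 1 to 3, 4 to 6 and 1 to 5. The genes called at 1 week fell to 147 without naive replicate 1, 343 without week 1 replicate 1 and 277 without week 1 replicate 2.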
